A study of Homo sapiens with 21 samples.

Results

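CPSF1 and KHSRP, a pair of human RNA-binding proteins, were compared by the RNA fragments crosslinked to each of them. The members were the 2 libraries made with 0.5 U/ul RNase I, 1 of CPSF1 and 1 of KHSRP, of 21 samples in the series, 17 of which had files. The CPSF1 file held 21383 clusters and the KHSRP file 91188. Both proteins carried a FLAG-HA tag and were expressed from a stably integrated transgene in the human cell line Flp-In T-REx 293, which is of kidney origin. The cells of both were given 100 uM 4-thiouridine for 8 to 12 h and then exposed to ultraviolet light at a dose of 0.3 J/cm2. The tagged proteins were pulled down with anti-FLAG beads, and the RNA was handled with a fluorescent adapter in place of a radioactive label (fPAR-CLIP). Crosslinking at 4-thiouridine leaves T-to-C changes in the sequenced reads, and a cluster is a stretch of overlapping reads that carries such changes. For KHSRP the pellet was lysed in RIPA buffer and sonicated with 0.1 U/ul RNase I. The labels name no lysis for CPSF1, so protein and lysis cannot be told apart. KHSRP libraries at 0.15 and 1.5 U/ul and a FUBP3 library at 0.5 U/ul, from the same cell line and labelling, were used only to show how far values move between doses and proteins. There was 1 library per condition, so no spread between replicates was available, and no difference below carries a test.

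CPSF1 (CPSF160) is the largest subunit of the cleavage and polyadenylation specificity factor. That complex recognises the poly(A) signal, AAUAAA in most mRNAs, a short way upstream of the place where the new transcript is cut and receives its tail, and it meets the transcript while RNA polymerase II is still making it. KHSRP (KSRP, FUBP2) is a relative of FUBP1 and FUBP3 with K-homology domains that bind AU-rich and U-rich single-stranded RNA. It is known for roles in splicing, in the decay of mRNAs with AU-rich elements and in the maturation of some microRNA precursors.

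The sequences that carry the comparison are shown first, from the deposited cluster sequences (hg38, RNA strand, written with T for U). The CPSF1 clusters with the most reads lay on tRNA genes and on the U5 small nuclear RNA. In the tRNA sequences the capitals mark GGTTCGA, the T-loop core shared by many tRNAs and part of the internal promoter of their genes. It was present in 24 of the 117 CPSF1 clusters on tRNA genes and in 24 of the 72 of KHSRP, so it was not particular to CPSF1.
Glycine tRNA gene TRG-TCC1-1, chr19:4724108-4724137, + strand, 821 reads: gcagttgacccgGGTTCGAttcccggccaa
Serine tRNA gene TRS-GCT6-1, chr6:26305492-26305521, - strand, 409 reads: tgcacgcgtgGGTTCGAatcccatcctcgt
Arginine tRNA gene TRR-CCT2-1, chr17:75034435-75034464, - strand, 394 reads: ccagggattgtgGGTTCGAgtcccacctgg
Proline tRNA gene TRP-AGG2-4, chr11:76235558-76235587, + strand, 585 reads, with no match to the capitals: tcccgggttcaaatcccggacgagccctca

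The next set shows CPSF1 clusters with many reads among those that held AATAAA, the DNA form of the poly(A) signal, in introns and in 3' UTRs. The capitals mark AATAAA.
ERC1 intron, chr12:1202701-1202730, + strand, 59 reads: tgattcatgaatAATAAAgtaggtaaaaat
ERC1 intron, chr12:1201351-1201380, + strand, 57 reads: attcaaagagtgAATAAAattgttttgttg
NDUFA11 intron, chr19:5894672-5894701, - strand, 40 reads: cagaAATAAAttctgtgtctgtgtgtgtgt
ADIPOR2 intron, chr12:1732883-1732912, + strand, 38 reads: tgccttAATAAAtacttttgtgtgtgtagt
NAA15 3' UTR, chr4:139389296-139389325, + strand, 87 reads: gatgcAATAAAttgttttgaaaaacagttg
CDCA8 3' UTR, chr1:37709676-37709705, + strand, 64 reads: gtacctactttcAATAAAttctggttttgt
HSP90AB1 3' UTR, chr6:44253837-44253866, + strand, 35 reads: ttctgaaattaaagtatgcaaAATAAAgaa

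KHSRP clusters with TGTATA, one of the hexamers that was densest in KHSRP relative to CPSF1, are shown for comparison, with TGTATA in capitals.
PTBP2 intron, chr1:96803000-96803029, + strand, 94 reads: gcctaggaattaggaaTGTATActtgacaa
ERC1 intron, chr12:1323097-1323126, + strand, 64 reads: attggtatagacTGTATAttttgtggggaa
SON intron, chr21:33544829-33544858, + strand, 56 reads: ttgtcataattaTGTATAaatgcttaggaa
HNRNPU 3' UTR, chr1:244853569-244853598, - strand, 75 reads: aaatacTGTATAactagtgtgcttgtagta
SRSF3 3' UTR, chr6:36602908-36602937, + strand, 71 reads: ttagcataattgTGTATAgtcagttgaacc

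The libraries differed in depth and in how varied their reads were, which bears on every value that follows. The CPSF1 clusters held 180426 reads of 30527 distinct sequences, and the KHSRP clusters held 905433 reads of 349493 distinct sequences. A single distinct sequence made up 82.4% of CPSF1 clusters (95% Wilson interval 81.9 to 82.9%) and 29.2% of KHSRP clusters (28.9 to 29.5%). Among the KHSRP doses that share was 16.9% at 0.15 U/ul, 29.2% at 0.5 U/ul and 66.4% at 1.5 U/ul. The 1.5 U/ul library, with 200210 reads, was the KHSRP library closest to CPSF1 in depth. Clusters had a median length of 29 nt for CPSF1 and 30 nt for KHSRP, but the longest reached 112 nt for CPSF1 and 722 nt for KHSRP. Reads with a T-to-C change made up 92.6% of CPSF1 reads and 78.6% of KHSRP reads. All intervals cover counting error only, since reads of 1 library are not independent molecules.

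Introns held the largest share of clusters of both proteins, and several of the smaller classes held more of CPSF1 than of KHSRP. Clusters in coding sequence made up 3.12% of CPSF1 clusters and 0.643% of KHSRP clusters, and clusters in 5' UTRs made up 1.03% and 0.306%. Sequence without annotation took 14.1% of CPSF1 reads and 5.00% of KHSRP reads. Small nuclear RNAs took 0.954% of CPSF1 reads and 0.0765% of KHSRP reads, and small nucleolar RNAs took 0.258% and 0.0592%. The small nucleolar share of KHSRP was 0.268% at 1.5 U/ul, above that of CPSF1, so that order turned with the dose. In the other classes above, KHSRP at 1.5 U/ul was nearer to CPSF1 but still below it. Small nuclear RNAs took 0.571% of its reads and unannotated sequence 8.74%, and coding sequence and 5' UTRs held 1.87% and 0.592% of its clusters. Exons and introns of long intergenic noncoding RNAs held 1.92% of CPSF1 reads and 3.93% of KHSRP reads, but were level by clusters, with 1.78% and 1.81%.

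The intron and 3' UTR differences depended on which clusters were counted. The intron share was 67.9% for CPSF1 and 78.1% for KHSRP, lower in CPSF1 by 10.2 percentage points (difference -10.2, interval -10.9 to -9.50). When KHSRP clusters had to hold the same share of their library as the smallest CPSF1 cluster, at least 26 reads, the intron share of KHSRP was 62.8% and the difference was 5.15 points in favour of CPSF1. That minimum kept 3461 of the 91188 KHSRP clusters, while all 21383 CPSF1 clusters stayed. Against KHSRP at 1.5 U/ul the difference was -5.17 points. The 3' UTR share differed by 0.788 points (interval 0.350 to 1.24), higher in CPSF1. By reads this difference was -1.71 points, and with the matched minimum it was -12.9 points, so its sign was not settled.

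**Figure D1:**
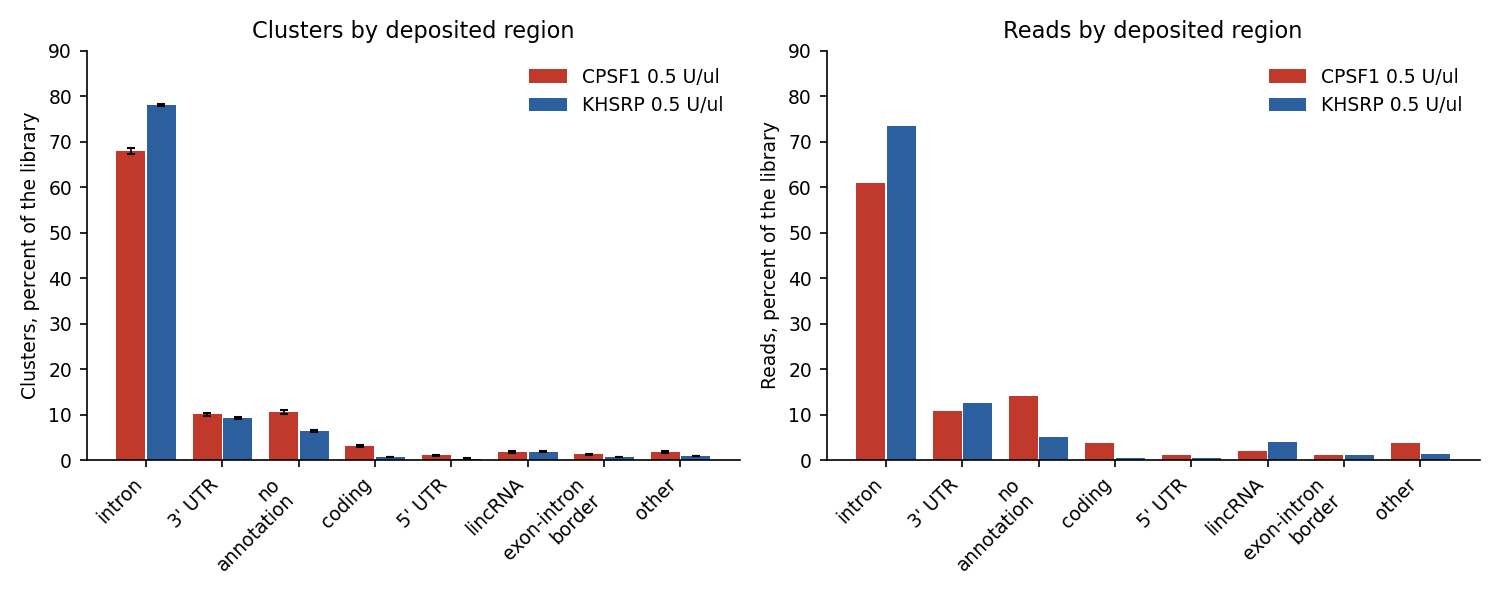
Percent of clusters (left) and of reads (right) by deposited region for CPSF1 (red) and KHSRP (blue) at 0.5 U/ul RNase I, 1 library each. Error bars on the left are 95% Wilson intervals and cover counting error only. Introns hold 67.9% of CPSF1 and 78.1% of KHSRP clusters. Antisense and processed transcripts are not drawn.

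Transfer RNA genes were the sites with the most CPSF1 reads. RNA polymerase III makes tRNA precursors with a 5' leader and a 3' trailer that are removed later. CPSF1 had 117 clusters on or within 20 nt of 108 of the 443 nuclear tRNA genes in RefSeq, holding 8066 reads or 4.47% of the library. KHSRP had 72 clusters on 65 tRNA genes, holding 2098 reads or 0.232%. The proteins had 32 of these tRNA genes in common, 76 had a cluster of CPSF1 alone and 33 of KHSRP alone. By distinct sequences the shares were 6.40% for CPSF1 and 0.278% for KHSRP. Of the 20 CPSF1 clusters with the most reads 11 lay on tRNA genes, and of the 20 of KHSRP none did.

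The same tRNA share was 0.125% for KHSRP at 0.15 U/ul, 0.232% at 0.5 U/ul and 1.23% at 1.5 U/ul, and 0.0638% for FUBP3. CPSF1 was thus above all 4 of the other libraries, and the KHSRP share was higher at each higher RNase I dose. The glycine gene TRG-TCC1-1, shown above, had 821 CPSF1 reads and no KHSRP cluster. The proline gene TRP-AGG2-4 had 590 CPSF1 reads and 6 KHSRP reads. The initiator methionine gene TRX-CAT1-1 had 364 CPSF1 reads and 51 KHSRP reads. The tyrosine gene TRY-GTA2-1 had more KHSRP reads than those genes, with 276 CPSF1 reads and 116 KHSRP reads, which is 0.153% and 0.0128% of each library. Other tRNA genes went the other way. Of the 33 with a cluster of KHSRP alone, TRV-CAC3-1 had the most KHSRP reads, 212.

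Many of these clusters ran past the mature tRNA. With the cluster's own strand taken as that of the tRNA, 56 CPSF1 clusters (47.9% of 117, 55.5% of their reads) reached at least 5 nt beyond the annotated 3' end, against 22 KHSRP clusters (30.6% of 72, 44.9% of their reads). TRR-CCT2-1 reached 32 nt beyond it and TRS-GCT6-1 reached 13 nt. Such clusters made up 37.5% for KHSRP at 0.15 U/ul, 33.8% at 1.5 U/ul and 38.5% for FUBP3, all below CPSF1. By reads KHSRP at 0.15 U/ul was level with CPSF1, at 55.8%, while KHSRP at 1.5 U/ul and FUBP3 were lower. The order by reads thus depended on the KHSRP dose, and these small counts carry no interval. Only 16 CPSF1 clusters and 5 KHSRP clusters began at least 5 nt before the annotated 5' end. The tRNA genes made up 27.5% of the unannotated reads of CPSF1 and 3.93% of those of KHSRP. Without them, unannotated sequence still held 10.2% of CPSF1 reads and 4.81% of KHSRP reads.

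**Figure D2:**
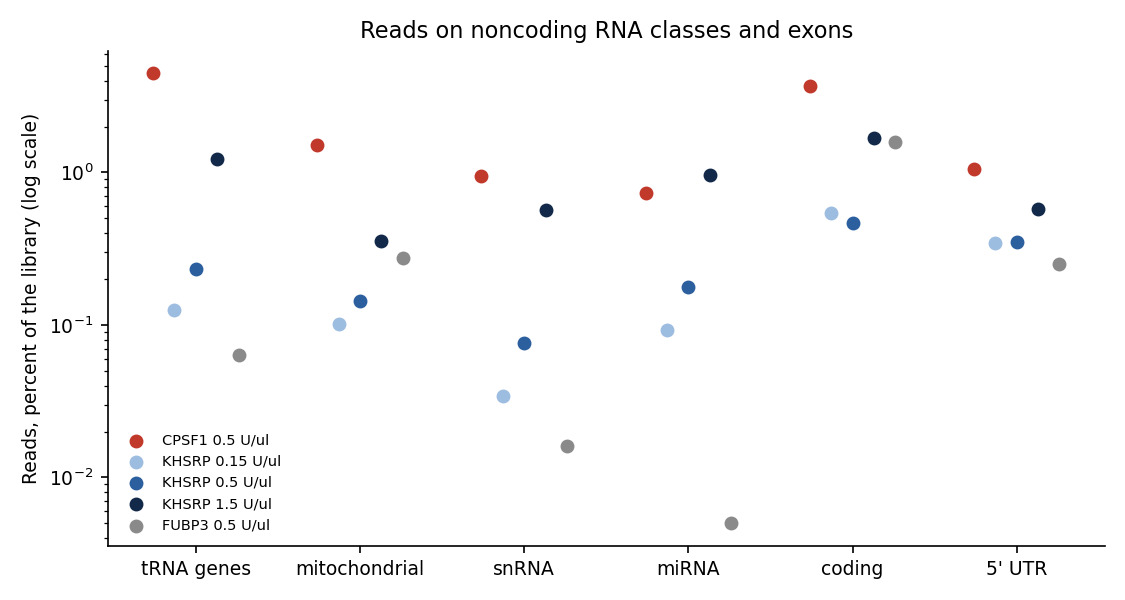
Percent of reads (log scale) on tRNA genes, mitochondrial RNA, snRNA, miRNA, coding sequence and 5' UTRs for CPSF1 at 0.5 U/ul (red), KHSRP at 0.15, 0.5 and 1.5 U/ul (light to dark blue) and FUBP3 at 0.5 U/ul (grey), 1 library each. CPSF1 is highest in 5 of the 6 classes. On miRNA genes KHSRP at 1.5 U/ul holds 0.961% and CPSF1 0.731%.

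The poly(A) signal separated the proteins most clearly among AU-rich sequences. AATAAA was found 3639 times in CPSF1 clusters, or 7.05 per 1000 positions, and 1973 times in KHSRP clusters, or 0.809 per 1000 positions, a ratio of 8.72 (counting interval 8.25 to 9.21). For a rough scale, the 300-base promoter windows of RefSeq genes held 0.394 per 1000 positions. Promoter DNA is unlike the mostly intronic clusters, so no enrichment is read from that value. Motifs were searched on the RNA strand as spelled, with overlapping matches counted. The ratio was 8.82 among clusters of at least 10 reads, 8.83 when clusters were weighted by reads, 7.65 against KHSRP at 0.15 U/ul and 10.8 against KHSRP at 1.5 U/ul.

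AATAAA was present in 14.7% of CPSF1 clusters (14.2 to 15.1%) and 2.11% of KHSRP clusters (2.02 to 2.21%). In introns it was present in 14.3% of CPSF1 clusters and 2.02% of KHSRP clusters. In 3' UTRs the values were 26.1% for CPSF1 and 3.40% for KHSRP, and in unannotated sequence 13.1% and 1.86%. Coding sequence was the exception, with 1.35% of CPSF1 clusters and 1.02% of KHSRP clusters. Most CPSF1 clusters with the signal, 2077 of 3135, were intronic, like the ERC1, NDUFA11 and ADIPOR2 clusters shown above. Introns held 67.9% of all CPSF1 clusters, so this majority was not particular to clusters with the signal.

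**Figure D3:**
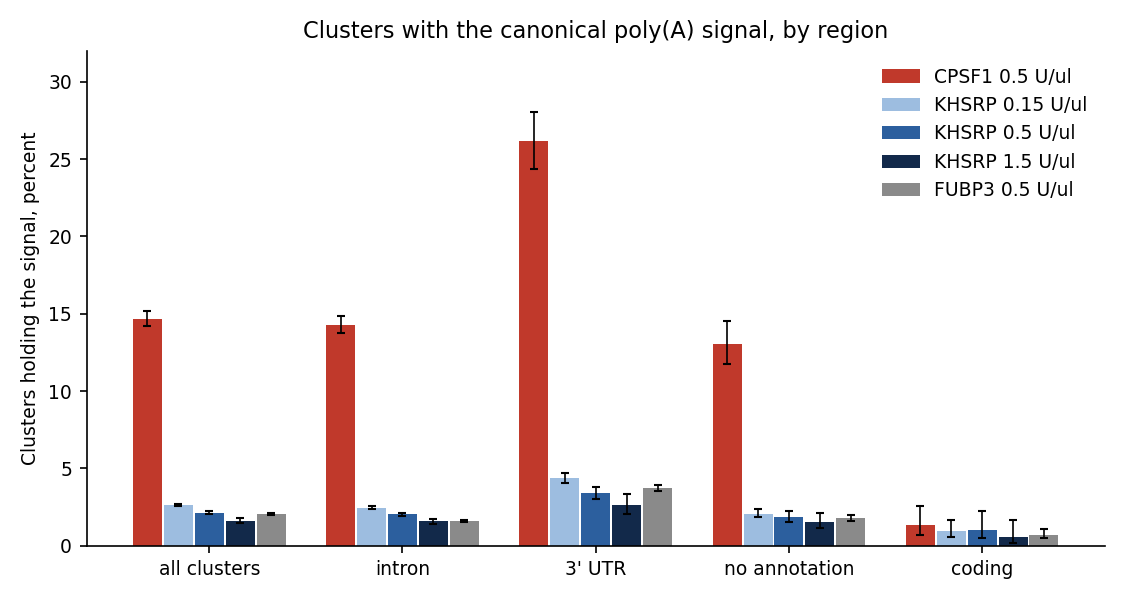
Percent of clusters that hold the canonical poly(A) signal, by region, for CPSF1 (red), KHSRP at 3 RNase I doses (light to dark blue) and FUBP3 (grey), 1 library each. Error bars are 95% Wilson intervals, counting error only. CPSF1 reaches 26.1% in 3' UTRs and 14.3% in introns, and no KHSRP or FUBP3 bar comes near these, while coding clusters are low in all libraries.

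Among all hexamers, AATAAA was the densest in CPSF1 clusters and ranked 256 in KHSRP clusters. The next densest in CPSF1 were AAATAA and ATAAAA, which overlap it by 5 bases, at 3.75 and 3.23 per 1000 positions, against 0.895 and 0.792 in KHSRP. Of the 18 hexamers that differ from AATAAA at 1 base, AAAAAA and ATTAAA were the highest in CPSF1 relative to KHSRP. AAAAAA had 1.25 per 1000 positions in CPSF1 and 0.308 in KHSRP, a log2 ratio of 2.03. ATTAAA, the most common variant signal, had 2.54 in CPSF1 and 1.01 in KHSRP, a log2 ratio of 1.33. AGTAAA, another known variant, had 0.610 in CPSF1 and 0.659 in KHSRP, a log2 ratio of -0.11. TATAAA had 0.864 and 1.2, a log2 ratio of -0.48.

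The hexamer ranking otherwise went largely with G and C content. CPSF1 clusters were 42.4% G and C and KHSRP clusters 31.9%, while T made up 32.1% of CPSF1 bases and 39.5% of KHSRP bases. Of 3221 hexamers with at least 100 occurrences, AATAAA ranked 67 by its ratio, and it ranked first of the 448 with at most 1 G or C. All of the 50 highest ratios belonged to hexamers with at least 4 G or C bases, and 49 of them contained CG. GCGCGG led them with 0.165 per 1000 positions in CPSF1 and 0.0102 in KHSRP. In KHSRP at 1.5 U/ul it had 0.0703, and the clusters of that library were 37.7% G and C. This contrast was thus smaller against the higher dose, and its cause was not tested. The median log2 ratio was 3.40 for hexamers made only of G and C and -0.75 for those without either. It was also -0.75 for those with 1 G or C.

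The 50 lowest ratios belonged to hexamers that all contained TA. TATAGT had 0.233 per 1000 positions in CPSF1 and 1.33 in KHSRP, TATGTA had 0.399 and 2.18, and TGTATA had 0.438 and 2.37. The densest hexamer in KHSRP was TGTTTT, with 1.63 per 1000 positions in CPSF1 and 3.01 in KHSRP. The shorter motif TGTA was present in 12.2% of CPSF1 clusters and 35.2% of KHSRP clusters. AU-rich element cores were also denser in KHSRP, with ATTTA at 2.29 and 4.91 per 1000 positions and TATTTAT at 0.338 and 0.750. The U-run TTTTTT was not, with 2.55 in CPSF1 and 1.77 in KHSRP. GTAAGT, the consensus of a 5' splice site, had 0.194 per 1000 positions in CPSF1 and 0.569 in KHSRP, and GGGT had 3.91 and 2.34. For GGGT the KHSRP value was 3.99 at 1.5 U/ul, so that order turned with the dose.

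The signal lay at different places within the clusters. It began a median of 7 nt from the 5' end of CPSF1 clusters, with 16 bases after it, and 15 nt from the 5' end of KHSRP clusters, with 12 bases after it. The files also give a position called the mode of each cluster, whose meaning is not given in the sources used here and which was not taken as the crosslink. In CPSF1 clusters with AATAAA the mode lay a median of 7 nt past the first base of the signal (quartiles 5 and 13 nt), and it lay after the signal in 74.3% of them. In KHSRP clusters with AATAAA the median was -2 nt (quartiles -11 and 10 nt), and the mode lay after the signal in 37.6%. The KHSRP values at the other doses were -1 nt each, and the FUBP3 value was -3 nt. In CPSF1 the 10 bases after the signal were 38.9% T and 14.1% C, and the 10 bases before it were 36.2% T and 15.8% C. For KHSRP these were 39.7% T and 11.2% C after the signal, and 41.7% T and 9.65% C before it.

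Annotated gene ends showed the same contrast. The end of a RefSeq protein-coding gene marks the last known cleavage site, and the signal normally lies a short way upstream of it. CPSF1 had 338 clusters, 1.58% of all (1.42 to 1.76%), centred in the last 50 nt of such a gene, and KHSRP had 206, which is 0.226% (0.197 to 0.259%). Further upstream, 51 to 500 nt from the end, the order was different, with 1.75% of CPSF1 clusters and 1.97% of KHSRP clusters. In the 20 nt just before the end the values were 0.875% for CPSF1 and 0.0318% for KHSRP. Between 60 and 41 nt before the end the order turned, with 0.117% of CPSF1 clusters and 0.191% of KHSRP clusters.

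Among 3' UTR clusters, 13.8% of CPSF1 and 2.23% of KHSRP lay in the last 50 nt. AATAAA was present in 65.1% of the CPSF1 clusters in the last 50 nt and in 23.3% of the KHSRP clusters there. Of CPSF1 3' UTR clusters with the signal, 35.0% (31.2 to 39.0%) lay in the last 50 nt, against 6.26% of those without it. For KHSRP these were 14.0% (10.4 to 18.5%) with the signal and 1.82% without it. CDCA8, a subunit of the chromosomal passenger complex, and HSP90AB1, a cytosolic chaperone, had their signal clusters centred 29 and 35 nt before the annotated end (distances -29 and -35 nt).

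**Figure D4:**
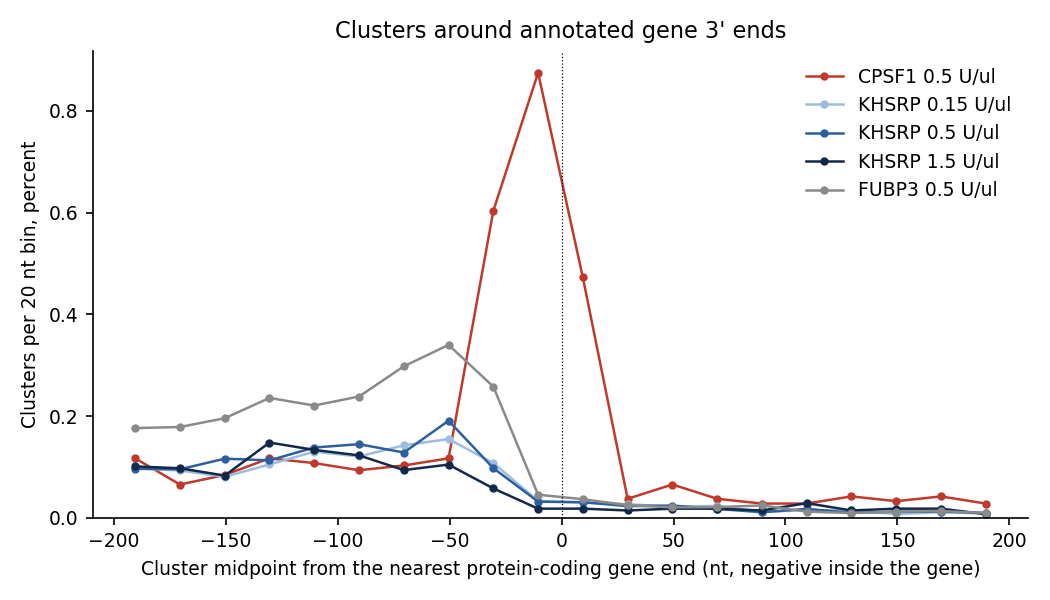
Percent of clusters per 20 nt bin by distance of the cluster midpoint from the nearest protein-coding gene end on the same strand (nt, negative inside the gene), for CPSF1 (red), KHSRP at 3 doses (light to dark blue) and FUBP3 (grey). The CPSF1 line peaks at 0.875% in the last 20 nt, where KHSRP at 0.5 U/ul is at 0.0318%.

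CPSF1 clusters also lay past gene ends and near gene starts more often. Within 10000 nt past a gene end the shares were 5.88% of CPSF1 and 2.92% of KHSRP clusters, and AATAAA was present in 11.5% and 1.65% of those. The first 1000 nt of genes held 2.58% of CPSF1 and 0.589% of KHSRP clusters. Antisense to genes within 1000 nt upstream of their start, where promoters also give short unstable transcripts, the shares were 0.945% for CPSF1 and 0.219% for KHSRP. Within genes, by contrast, intronic clusters were spread alike. The median position was 0.455 of the gene length from its start for both proteins, with quartiles of 0.217 and 0.705 for CPSF1 and 0.228 and 0.687 for KHSRP. The median length of the genes they lay in was 111740 nt for CPSF1 and 104603 nt for KHSRP.

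Few clusters of the proteins overlapped. Of the CPSF1 clusters 683, or 3.19% (2.97 to 3.44%), shared 1 nt or more with a KHSRP cluster of the same strand, and they held 7.46% of CPSF1 reads. In the other direction 680 KHSRP clusters overlapped, 0.746% (0.692 to 0.804%), with 3.54% of KHSRP reads. On the opposite strand the CPSF1 share was 0.0935%. At the place 1000 nt along the chromosome, 1.60% of CPSF1 clusters had a KHSRP cluster on the same strand. The share of CPSF1 clusters that overlapped was 5.86% for KHSRP at 0.15 U/ul, which had more clusters, 1.10% for KHSRP at 1.5 U/ul, and 5.17% for FUBP3. For scale, 27.1% of KHSRP clusters at 0.5 U/ul overlapped one at 0.15 U/ul, and 13% overlapped one of FUBP3.

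The overlap was uneven between RNAs. It reached 23.1% of CPSF1 clusters on tRNA genes (27 of 117) and 37.5% of those of KHSRP (27 of 72). It was 7.56% for CPSF1 clusters in 3' UTRs, 2.51% in introns and 3.15% in coding sequence. CPSF1 clusters with AATAAA overlapped a KHSRP cluster in 4.63% (3.94 to 5.42%) and those without it in 2.95% (2.71 to 3.20%). The pair with the highest joint share was in an ERC1 intron, where the second ERC1 signal cluster shown above (50 nt, 57 reads) lay inside the KHSRP cluster with the most reads among those named here (chr12:1200876-1201559, 684 nt, 3308 reads). RNU5D-1 came next, with 731 CPSF1 reads and 113 KHSRP reads. The fifth pair was on RNU11, the U11 small nuclear RNA of the minor spliceosome, with 119 CPSF1 reads and 466 KHSRP reads, shown here by 30 bases of the CPSF1 cluster.
RNU11, chr1:28648622-28648651, CPSF1 cluster, + strand: ggcacacgtagggcaactcgattgctctgc
The third pair was on mitochondrial RNA at chrM:233-302, with 337 CPSF1 reads and 213 KHSRP reads. The fourth was a short CPSF1 cluster of 19 reads at the edge of the same large ERC1 cluster.

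Genes were compared by their share of the reads in clusters. CPSF1 clusters named 7490 genes and KHSRP clusters 8855, with 5749 in common. Over these 5749 genes the shares had a Spearman correlation of 0.434, against 0.890 for KHSRP at 0.5 and 0.15 U/ul over 7848 genes and 0.725 for KHSRP at 0.5 and 1.5 U/ul over 5805 genes. These are descriptions across genes, which are not independent replicates, and gene length was not accounted for. Of 2451 genes with a mean share of at least 0.01%, 2332 had clusters of both proteins, and 50 had clusters of CPSF1 alone and 69 of KHSRP alone. At least 2-fold higher in CPSF1 were 633 of the 2332, 27.1% of genes compared, and at least 2-fold higher in KHSRP were 737, 31.6%. The median log2 ratio was -0.13.

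These counts changed with the clusters and genes that were counted. Without each gene's largest cluster in each library 282 of 1515 genes were higher in CPSF1 and 660 in KHSRP. Compared genes had a median of 4 CPSF1 clusters and 19 KHSRP clusters. Dropping 1 cluster thus takes a larger part of the CPSF1 share, and this setting cannot show how far calls rested on single clusters. With at least 20 reads in each library 744 of 1964 were higher in CPSF1 and 338 in KHSRP. When distinct sequences replaced reads, in the filter as well, 508 of the 633 and 672 of the 737 were called the same way. With clusters of at least 2 distinct sequences, chosen after seeing the data, 680 of 1484 were higher in CPSF1 and 284 in KHSRP. Genes higher in CPSF1 had a median of 44 reads in 5 clusters for CPSF1 and 50 reads in 7 clusters for KHSRP. Genes higher in KHSRP had a median of 18 reads in 2 clusters for CPSF1 and 356 reads in 33 clusters for KHSRP. In both sets intronic reads prevailed, with a median intron share in CPSF1 of 90.7% for genes higher in CPSF1 and 100% for genes higher in KHSRP. Clusters with AATAAA made up 13% of the CPSF1 clusters in genes higher in CPSF1 and 17.9% of those in genes higher in KHSRP.

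**Figure D5:**
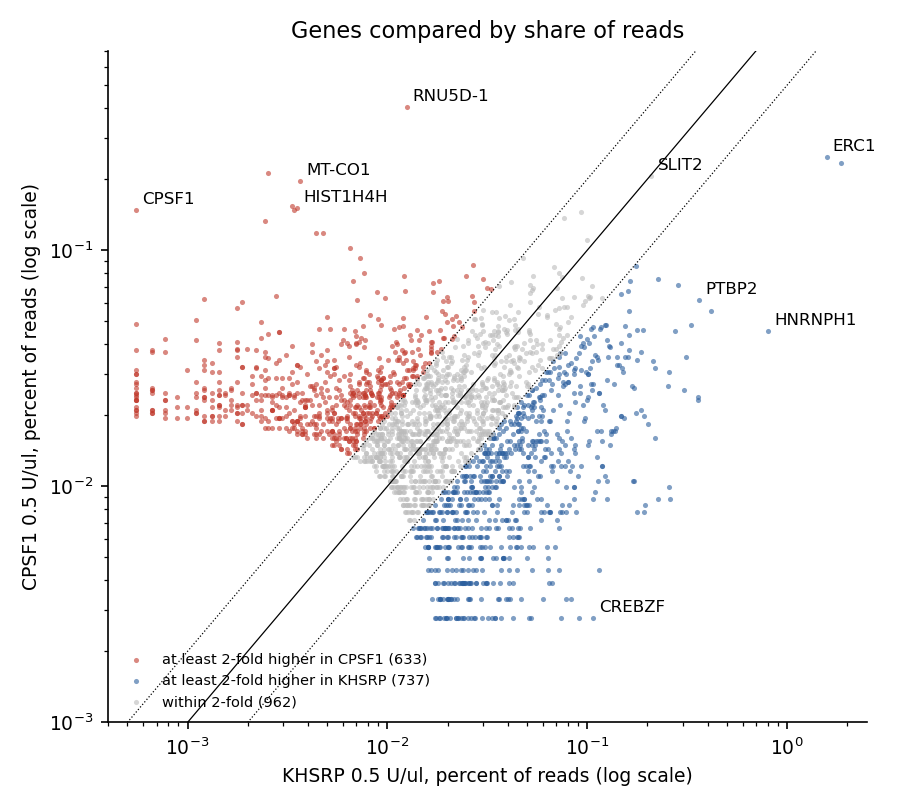
Share of reads per gene for KHSRP (x axis) and CPSF1 (y axis) at 0.5 U/ul, both on log scales in percent, for the 2332 genes with clusters of both proteins. The solid line marks equal shares and the dotted lines 2-fold. Red genes (633) are higher in CPSF1, blue genes (737) higher in KHSRP, and 962 grey genes lie within 2-fold. The lower left is empty because genes had to reach a mean share of 0.01%.

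The genes with the most CPSF1 reads were mostly short noncoding RNAs and exonic RNAs. RNU5D-1 held 0.405% of CPSF1 reads, against 0.0125% of KHSRP reads. ERC1, a scaffold protein of vesicle docking, came second in CPSF1 with 0.248%, and first in KHSRP among the genes named here with 1.58%. Its KHSRP share was 1.58% at 0.15 U/ul and 1.11% at 1.5 U/ul, so ERC1 was high in every library and higher in KHSRP. SLIT2, an axon guidance ligand with long introns, was level, with 0.206% of CPSF1 reads in 43 clusters and 0.209% of KHSRP reads in 198 clusters.

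RNU12, the U12 small nuclear RNA, held 0.202% of CPSF1 reads. It had no KHSRP cluster at 0.15 or 0.5 U/ul but held 0.181% of the KHSRP reads at 1.5 U/ul. RNA5SP215, a 5S ribosomal RNA pseudogene, held 0.177% of CPSF1 reads and CTC-559E9.12 held 0.165%, neither with a KHSRP cluster at any dose. CTC1 held 0.213% of CPSF1 reads and 0.00254% of KHSRP reads, but all 385 of its CPSF1 reads lay in 1 cluster on the serine tRNA gene TRS-AGA2-6 (chr17:8226604-8226643), which the authors' files label as the 3' UTR of CTC1. RP11-25K21.6 held 0.154% of CPSF1 reads and 0.00331% of KHSRP reads, and its 277 CPSF1 reads lay on a tRNA gene as well. HIST1H4H, a histone H4 gene, held 0.151% and 0.00353%.

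After ERC1, the genes with the most KHSRP reads among those named here were the following. HNRNPH1, a splicing regulator that binds G-runs, held 0.0454% of CPSF1 reads and 0.808% of KHSRP reads, a log2 ratio of -4.15. PTBP2, the neuronal polypyrimidine tract-binding protein, held 0.0615% and 0.363%. FUBP1, a relative of KHSRP, held 0.0233% and 0.359%. RBM39, a splicing factor of the U2AF family, held 0.0238% and 0.358%. HNRNPA2B1, an hnRNP protein, held 0.0355% and 0.312%. ZNF711, a zinc finger protein, held 0.0554% and 0.414%, and URI1, a prefoldin-like protein, held 0.0709% and 0.285%. CPSF6, a subunit of cleavage factor I, which acts beside CPSF in the same reaction, held 0.0482% and 0.331%.

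Against all 3 KHSRP doses and by distinct sequences, 348 genes were at least 2-fold higher in CPSF1 and 481 at least 2-fold higher in KHSRP. They came from the 633 genes called higher in CPSF1 and the 737 called higher in KHSRP, of 2332 compared. A gene lacking a KHSRP cluster at some dose could not qualify. How many genes could qualify is not given here, so 348 and 481 are not read as shares of the compared genes. The 10 furthest toward CPSF1 were CTC1, 3 mitochondrial genes and 6 genes with at most 7 KHSRP reads. EEF2, the translation elongation factor that moves the ribosome along, had 76 CPSF1 reads and 7 KHSRP reads. NUP210, a nuclear pore protein, had 54 and 5. SBF1 had 49 and 5, FAM53B had 67 and 7, EXOC3, an exocyst subunit, had 47 and 5, and BTBD11 had 45 and 5. Since 5 reads was the smallest cluster in the files, these 6 ratios, with log2 values of 5.50 to 5.77, rest on single KHSRP clusters near the limit of detection.

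The 10 furthest toward KHSRP had at most 18 CPSF1 reads. CREBZF, a transcriptional regulator, had 5 CPSF1 reads and 971 KHSRP reads, a log2 ratio of -5.27, and 75% of its KHSRP reads were in the 3' UTR. SUPT20H, a subunit of the SAGA coactivator, had 5 and 824. U2SURP, a protein of the U2 spliceosomal particle, had 16 and 2349, and SRSF1, a founding SR protein, had 8 and 1033. BRWD1 had 18 and 2331, NUP153, a nuclear basket protein, had 16 and 2047, and RBM26 had 14 and 1747. HNRNPD (AUF1), itself a binder of AU-rich elements, had 5 and 670, MTX2, a mitochondrial outer membrane protein, had 6 and 753, and SCML1 had 6 and 711. These genes were chosen for being past 2-fold against all 3 KHSRP doses. High KHSRP shares at 0.15 and 1.5 U/ul were thus built into the choice. CREBZF, for example, held 0.0942%, 0.107% and 0.0744% of KHSRP reads at the 3 rising doses.

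Gene groups divided between the proteins. Counts are read here against the 27.1% and 31.6% of all compared genes. Of 28 compared SR and hnRNP genes, 1 was higher in CPSF1 and 22 in KHSRP, with a median log2 ratio of -2.44. The group held 0.569% of CPSF1 reads and 3.07% of KHSRP reads. HNRNPU, a nuclear matrix-associated protein, held 0.0266% and 0.254%. Of 24 genes for CLK kinases, cyclin L and speckle splicing regulators, 1 was higher in CPSF1 and 18 in KHSRP, with a median of -2.14. SON, a scaffold of nuclear speckles, held 0.0316% and 0.219%. SRSF11 belongs to both groups.

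Of 11 compared genes for 3' end processing factors, 1 was higher in CPSF1 and 7 in KHSRP, with a median of -1.11. XRN2, the exonuclease of transcription termination, held 0.0371% of CPSF1 reads and 0.187% of KHSRP reads. SCAF4, a suppressor of early polyadenylation, held 0.0394% and 0.129%. PAPOLA, the poly(A) polymerase, had 8 CPSF1 reads and 657 KHSRP reads. The 1 gene higher in CPSF1 was CPSF1 itself, with 267 reads in 11 clusters and 0.148% of the library, all in coding sequence, against 5 KHSRP reads. Whether these reads came from the transgene was not tested. KHSRP's own mRNA had 6 reads in the CPSF1 library and 38 in the KHSRP library, 0.00333% and 0.00420%.

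Of 10 compared long noncoding RNAs, 2 were higher in CPSF1 and 6 in KHSRP, with a median of -1.46. NEAT1, the core RNA of paraspeckles, held 0.0754% of CPSF1 reads and 0.226% of KHSRP reads. JPX held 0.0305% and 0.258%, FTX held 0.0161% and 0.218%, and MIR17HG, the host of the miR-17 cluster, held 0.0349% and 0.0880%. Of 8 mRNAs known for AU-rich elements, 1 was higher in CPSF1 and 2 in KHSRP, with a median of 0.05. PMAIP1 (NOXA), a trigger of apoptosis, was one of these 2, with 19 CPSF1 reads and 1131 KHSRP reads, of which 96.3% were in its 3' UTR, and HNRNPD, which is also among the hnRNP genes, was the other. SLC7A1, an arginine transporter, had 40 and 269 reads, and CCNB1, the mitotic cyclin B1, had 50 and 145, both within 2-fold by share. In the FUBP family, FUBP1 was higher in KHSRP and FUBP3 was within 2-fold, with 0.0233% of CPSF1 reads and 0.0158% of KHSRP reads.

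Mitochondrial RNAs, ribosomal protein genes, histone genes and short noncoding RNAs each held a larger share of CPSF1 reads than of KHSRP reads. Of 10 compared mitochondrially encoded RNAs, 9 were higher in CPSF1 and none in KHSRP, with a median log2 ratio of 4.75. MT-CO1, the first subunit of cytochrome c oxidase, held 0.196% of CPSF1 reads and 0.00364% of KHSRP reads, MT-ND4 held 0.147% and 0.00342%, MT-ND1 held 0.132% and 0.00243%, MT-ND5 held 0.102% and 0.00652%, and MT-CYB held 0.0621% and 0.00121%. The exception, MT-ND6, lies on the other strand of the mitochondrial genome, and it held 0.0288% and 0.0341%. All reads on the mitochondrial genome made up 1.5% of CPSF1 reads, against 0.101%, 0.143% and 0.354% of KHSRP reads at 0.15, 0.5 and 1.5 U/ul.

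Of 15 compared cytoplasmic ribosomal protein genes, 8 were higher in CPSF1 and 2 in KHSRP, with a median of 1.54. Before the filter on mean share, 56 such genes had a CPSF1 cluster and 65 a KHSRP cluster. RPLP1 held 0.118% of CPSF1 reads and 0.00475% of KHSRP reads, RPS4X held 0.0294% and 0.00884%, and RPS24 was one of the 2 on the other side with 0.0172% and 0.0610%. Replication-dependent histone mRNAs end in a stem-loop and carry no poly(A) tail. Of the histone genes, 18 had a CPSF1 cluster and 7 a KHSRP cluster, and 5 passed the mean share, 4 of them without a KHSRP cluster. Those 4 passed through the CPSF1 library alone, so their count says nothing about direction. Of all 2451 genes that passed, 50 had clusters of CPSF1 alone. Together the histone genes held 0.473% of CPSF1 reads and 0.0125% of KHSRP reads. HIST1H4B had 136 CPSF1 reads, of which 96.3% were labelled 3' UTR.

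Of short noncoding RNA genes, 77 had a CPSF1 cluster and 94 a KHSRP cluster, and together they held 2.24% of CPSF1 reads and 0.348% of KHSRP reads. The mean share was passed by 27, of which 16 had no KHSRP cluster and 2 no CPSF1 cluster. These genes passed through 1 library alone, so their count says nothing about direction. Of the 9 compared, 6 were higher in CPSF1 and none in KHSRP, with a median of 2.80. RNU4-2, a U4 small nuclear RNA, held 0.118% of CPSF1 reads and 0.00442% of KHSRP reads. Several were level or dose-dependent in KHSRP. RNU11 held 0.0660% of CPSF1 reads, and 0.0167%, 0.0515% and 0.277% of KHSRP reads at 0.15, 0.5 and 1.5 U/ul. MIR16-2, a microRNA gene, held 0.0355% of CPSF1 reads, and 0.00543%, 0.0208% and 0.0839% of KHSRP reads at those doses. The order of CPSF1 and KHSRP for these 2 genes thus turned with the RNase I dose of KHSRP.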

How the data were processed

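Cluster tables of fPAR-CLIP libraries were used, 1 each of CPSF1 and KHSRP at 0.5 U/ul RNase I, with KHSRP at 0.15 and 1.5 U/ul and FUBP3 at 0.5 U/ul for scale. The authors deposited raw counts of reads and of distinct sequences per cluster, with the cluster's position, sequence, region and gene name, and a conversion fraction per cluster, also made by the authors. The submitters' processing notes name bcl2fastq 2.20.0, cutadapt 1.15 and hg38. Which aligner, which cluster caller and which annotation were used is not given in the sources used here. No deposited cluster held fewer than 5 reads, so a gene without a cluster is below that limit and not shown to be unbound. Reads carry no stated molecular identifiers, so read counts include amplification.

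Shares are percent of the reads or clusters of a library, with 95% Wilson intervals. Genes were summed by deposited name and strand, kept at a mean share of at least 0.01%, and called at 2-fold. Positions relative to gene ends and tRNA genes used RefSeq GRCh38.p14, with 20 nt around tRNA genes. Overlaps were taken with bedtools 2.31.1 and the rest with Python 3.11.15, numpy 2.4.6, pandas 2.3.3, scipy 1.17.1 and matplotlib 3.10.9. The scripts were tested on simulated data. Text names the 10 genes with the highest share in each library, the 10 furthest each way among genes past 2-fold the same way against all 3 KHSRP doses and by distinct sequences, the 4 compared members with the highest mean share of each list, and the clusters with the most reads. Other genes are named where a count turns on them, chosen after their values were seen. Some genes and sequences that this rule would name are not reported here. The comparison, the gene lists (3' end processing factors, SR and hnRNP proteins, CLK, cyclin L and speckle regulators, mRNAs with AU-rich elements, long noncoding RNAs, histones, ribosomal proteins, mitochondrial RNAs, short noncoding RNAs and the FUBP family) and the motifs were chosen with earlier results of these data known. TGTATA and TATGTA were chosen from the hexamer ranking.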

Additional observations from a re-analysis of the deposited data

How the results depend on the processing

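No paired analysis was possible because each protein had 1 library. The intron difference, CPSF1 minus KHSRP, was -10.2 percentage points. It was -15.0 with clusters of at least 10 reads, -12.5 weighted by reads, -11.1 and -5.17 against KHSRP at 0.15 and 1.5 U/ul, -22.6 with at least 2 distinct sequences per cluster (a setting chosen after seeing the data) and 5.15, reversed, with the matched minimum share. The 3' UTR difference of 0.788 points was -0.552, -12.9 and -1.71 with at least 10 reads, with the matched minimum and by reads, all reversed, and 1.36, 1.25 and 5.72 against KHSRP at 0.15 and 1.5 U/ul and with at least 2 distinct sequences. The cause was not tested. The 737 genes higher in KHSRP became 338 with at least 20 reads in each library and 284 with at least 2 distinct sequences, where fewer genes were tested. The 633 higher in CPSF1 became 282 without each gene's largest cluster, 281 of them the same genes. That setting takes a larger part of the CPSF1 shares, since CPSF1 had fewer clusters per gene. The overlap of 3.19% was 1.41% when 50% of each cluster had to be shared, 3.59% with at least 10 reads, 7.46% by reads, 5.86% and 1.10% against KHSRP at 0.15 and 1.5 U/ul, and 6.23% with at least 2 distinct sequences. The AATAAA ratio of 8.72 was 7.65, 10.8 and 13.1 in those last 3 settings and stayed above 1 in every setting tried. Of 353 values of 56 named genes under the alternatives, 239 stayed close and 114 moved. No gene past 2-fold changed sign, but 5 values of 4 genes within 2-fold did, SLIT2 with the ratios centred on their median (log2 0.11) and, against KHSRP at 1.5 U/ul, SLIT2 (0.14), SLC7A1 (0.05), RNU11 (-2.07) and MIR16-2 (-1.24). Depth limits genes near 5 reads, and 82.4% of CPSF1 clusters rested on 1 distinct sequence.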
